A study of Homo sapiens with 2 samples.

Results

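P-TEFb, the kinase that sets paused RNA polymerase II moving, was followed in prostate cancer cells together with the complex that holds it inactive and the scaffold factors that carry it to genes. The genes were CDK9, CCNT1, CCNT2, HEXIM1, HEXIM2, LARP7, MEPCE, AFF1, AFF4 and ELL2. They were chosen by symbol from knowledge of the pathway, with earlier results of these data known. Every row of the expression tables that carried one of the 10 symbols, alone or joined with others, was taken. All 10 were expressed, defined as 1 RPKM or more in a library, where RPKM is a read count scaled to transcript length and library size. They stood among 15452 expressed symbols, with each joined name counted as a symbol, of which 9821 are protein-coding. The cells were C4-2B, an androgen-independent line that models castration-resistant prostate cancer in bone. They were exposed to 2.5 µM MA4-022-1, described by the labels as a dual inhibitor of BET proteins and kinases, or to DMSO as vehicle. How long they were exposed is not stated in the labels. Both groups share the line and its medium, and each had 1 library of total RNA, so no difference has a replicate check and none carries a p-value. The submitters' aim was to find genes that castration-resistant tumours depend on and that the compound could reach.

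P-TEFb consists of the kinase CDK9 and a T-type cyclin, and it phosphorylates the polymerase and its pausing factors so that elongation can begin. Much of it is kept inactive in a particle built on the small nuclear RNA 7SK, in which HEXIM proteins inhibit the kinase while LARP7 and MEPCE protect the RNA. Released P-TEFb is brought to genes by BET proteins or by the super elongation complex, whose scaffolds are AFF proteins and whose ELL proteins raise the speed of the polymerase. HEXIM1 is widely used as a marker gene of BET inhibitor exposure in cells and in blood.

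HEXIM1 and AFF1 were at least 2-fold higher in the MA4-022-1 library than in the vehicle library, and no member was at least 2-fold lower. The other 8 genes lay within 2-fold. The 2 genes at least 2-fold higher make up 20% of the members, while 7.79% of all expressed symbols and 4.12% of the protein-coding ones were at least 2-fold higher. In the other direction, 0 of 10 members stood beside 9.6% of all expressed symbols and 9.51% of the protein-coding ones. The members' median log2 ratio was 0.15, against -0.02 over all expressed symbols and -0.10 over the protein-coding ones. Because the members were chosen with earlier results known, these shares and medians describe the set and do not test it. Ratios throughout are log2 ratios of the level plus a pseudocount of 1 RPKM, MA4-022-1 over vehicle. Folds are on the same scale, on which differences of weakly expressed genes appear smaller than they are.

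**Figure D1:**
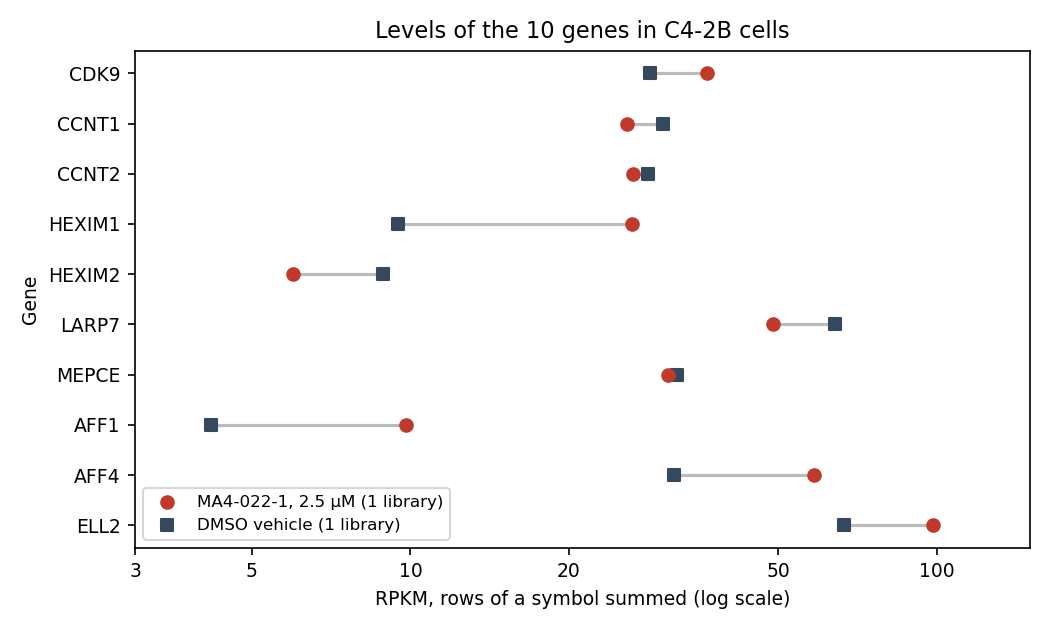
Level of each gene in the MA4-022-1 library (circles) and the vehicle library (squares) on a log axis of RPKM, with the rows of a symbol summed and 1 library per group. HEXIM1 is the widest pair, at 26.3 against 9.49 RPKM, and ELL2 is the highest gene in both libraries.

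The promoters of the genes at least 2-fold higher, and that of HEXIM2 as the paralogue that was not, are shown because they are the regulatory sequences nearest to the main contrast among the members. Each runs from 250 bases before to 50 bases after an annotated start, comes from RefSeq on GRCh38.p14 and is written 5′ to 3′ on the gene's strand. Capitals mark matches on either strand to any of 5 motifs. They are the GC box with the letters GGGCGG, the box named by its own letters CCAAT, the TATA box with the letters TATAAA, the E-box with the letters CACGTG, and the cyclic AMP response element with the letters TGACGTCA. The HEXIM1 window lies at chr17:45148225-45148524 on the plus strand, the AFF1 window, the upstream one of its 2 annotated promoters, at chr4:86934761-86935060 on the plus strand, and the HEXIM2 window, the downstream one of its 2 annotated promoters, at chr17:45161625-45161924 on the plus strand.
HEXIM1: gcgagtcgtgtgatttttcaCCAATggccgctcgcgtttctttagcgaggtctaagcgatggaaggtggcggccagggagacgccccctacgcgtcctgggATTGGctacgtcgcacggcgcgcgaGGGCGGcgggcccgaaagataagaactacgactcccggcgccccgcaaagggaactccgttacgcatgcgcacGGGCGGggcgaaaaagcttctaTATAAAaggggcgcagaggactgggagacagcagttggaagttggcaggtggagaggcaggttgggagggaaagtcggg
AFF1: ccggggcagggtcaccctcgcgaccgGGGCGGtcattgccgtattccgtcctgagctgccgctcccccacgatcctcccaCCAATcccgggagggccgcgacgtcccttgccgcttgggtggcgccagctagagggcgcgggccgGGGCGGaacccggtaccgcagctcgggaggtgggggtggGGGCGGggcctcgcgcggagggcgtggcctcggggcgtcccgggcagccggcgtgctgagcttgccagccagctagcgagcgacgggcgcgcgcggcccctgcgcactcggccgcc
HEXIM2: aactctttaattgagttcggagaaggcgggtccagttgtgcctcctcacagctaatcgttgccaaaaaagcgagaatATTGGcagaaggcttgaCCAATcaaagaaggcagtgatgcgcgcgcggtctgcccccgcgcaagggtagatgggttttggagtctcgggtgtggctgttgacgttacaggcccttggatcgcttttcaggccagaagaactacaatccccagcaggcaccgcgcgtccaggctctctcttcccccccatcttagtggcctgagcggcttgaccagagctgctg

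The HEXIM1 window holds a TATAAA beginning 29 bases before the start, GC boxes beginning 51 and 124 bases before it, and CCAAT boxes beginning 149 and 230 bases before it. Distances are from the RefSeq start. The HEXIM1 transcript of GENCODE release 29, used below for its length, opens with the last 23 bases of this window, so its start lies downstream. The AFF1 window holds GC boxes beginning 66, 105 and 224 bases before the start and a CCAAT box beginning 170 bases before it, and the other AFF1 window, which is not shown, holds 1 GC box and 1 CCAAT box. In the HEXIM2 window shown the only matches are CCAAT boxes beginning 156 and 173 bases before the start. The other HEXIM2 window, which is not shown, holds no match to any of the motifs. A TATAAA was found in 1 of the 9 members with a promoter entry, HEXIM1, and in 11.5% of all 35116 promoter windows of the same length. GC boxes were found in 8 of the 9 members and in 45.0% of all windows, and CCAAT boxes in 7 of the 9 and in 34.6%. An E-box was found in 3 of the 9 and in 7.26% of all windows. The cyclic AMP response element was found in 1 of the 9, LARP7, and in 1.85% of all windows. Some members have several windows, so a member has more chances of a match than a single window. Counted per window, GC boxes were found in 11 of the 15 member windows, CCAAT boxes in 8 and E-boxes in 3. TATAAA and the cyclic AMP response element were each found in 1 of the 15. The AFF1 window shown is 77.7% G or C, the HEXIM1 window 62.0% and the HEXIM2 window shown 56.3%, against a median of 58.7% over all windows. The window not shown is 72.7% G or C for AFF1 and 35.3% for HEXIM2. ELL2 has no entry.

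HEXIM1, which inhibits the kinase when bound to 7SK, stood at 26.3 RPKM in the MA4-022-1 library and 9.49 RPKM in the vehicle library. Its log2 ratio was 1.38, or 2.60-fold, and 98.4% of the protein-coding symbols had a lower ratio. These sums correspond to about 1780 reads with MA4-022-1 and 875 with vehicle at the annotated transcript length of 3600 nt. On the plain log2 scale without a pseudocount the ratio was 1.47, with a 95% counting interval from 1.35 to 1.59 (exact Clopper-Pearson on the estimated reads). Intervals of this kind cover counting error only, since reads from 1 original fragment are not independent and the spread between cultures is not in them. In bulk RNA, fewer cells with a transcript and less of it per cell cannot be told apart, for this gene or any other here.

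The HEXIM1 sum joined 2 rows that differed in direction. Both lie in 1 deposited locus on hg19, chromosome 17 from 43224134 to 43248951, which also holds HEXIM2. In the deposited tables each chromosome is listed in 2 runs, and the runs follow annotated strand: of protein-coding symbols with a single row, 7491 of 7535 in the first run are plus-strand genes and 7438 of 7482 in the second are minus-strand genes. HEXIM1 and HEXIM2 are plus-strand genes with a row in each run. The HEXIM1 row in the plus-strand run was at 23.2 RPKM in the MA4-022-1 library and 5.08 RPKM in the vehicle library, 3.99-fold higher, and 99.6% of the protein-coding symbols had a lower ratio. Its plain log2 ratio was 2.19, with a counting interval from 2.04 to 2.34 on about 1572 reads with MA4-022-1 and 469 with vehicle. The HEXIM1 row in the minus-strand run was at 3.07 RPKM in the MA4-022-1 library and 4.41 RPKM in the vehicle library, a log2 ratio of -0.41. The higher sum with MA4-022-1 thus came from the row that lies with plus-strand genes. In the minus-strand run of the same locus, AC002117.1 was at 41.5 RPKM in the MA4-022-1 library and 5.79 RPKM in the vehicle library, and its part in the HEXIM1 values was not tested.

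The row in the opposite run made up 11.7% of the HEXIM1 level in the MA4-022-1 library and 46.5% in the vehicle library. Among symbols with a row in each run, 256 in the MA4-022-1 library and 258 in the vehicle library, the median share in the opposite run was 28.6% with MA4-022-1 and 23.3% with vehicle. The quartiles were 10.3% and 64.0% in the MA4-022-1 library and 6.86% and 58.2% in the vehicle library, so both HEXIM1 shares lay between them. For HEXIM2 the opposite run held 64.9% of the level in the MA4-022-1 library, just above the upper quartile, and 50.5% in the vehicle library. How strand entered the authors' quantification is not stated in the labels, and reads of a gene and of an antisense partner cannot be told apart from these tables.

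HEXIM2, a paralogue that can replace HEXIM1 in the inhibitory particle, was at 5.98 RPKM in the MA4-022-1 library and 8.86 RPKM in the vehicle library. Its log2 ratio of -0.50, or 1.41-fold lower, was the lowest among the 10 genes. The plain log2 ratio was -0.57 with a counting interval from -1.0 to -0.15 on about 71 and 144 reads in the MA4-022-1 and vehicle libraries, the fewest of any member. At its shortest annotated transcript, 473 nt, these would be 32 and 65 reads and the interval, from -1.23 to 0.06, would hold 0. Its row in the plus-strand run was at 2.10 RPKM with MA4-022-1 and 4.38 RPKM with vehicle, a log2 ratio of -0.80. Its row in the minus-strand run was at 3.88 RPKM with MA4-022-1 and 4.48 RPKM with vehicle, a log2 ratio of -0.17. Both HEXIM2 rows were thus lower in the MA4-022-1 library and within 2-fold.

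The paralogues were at similar levels in the vehicle library and far apart in the MA4-022-1 library. HEXIM1 over HEXIM2 was 4.40 in the MA4-022-1 library and 1.07 in the vehicle library with all rows summed. With the plus-strand rows alone the ratio of levels was 11.1 with MA4-022-1 and 1.16 with vehicle. Together they reached 32.3 RPKM in the MA4-022-1 library and 18.3 RPKM in the vehicle library. The annotated transcripts of HEXIM1 and HEXIM2 in GENCODE release 29 share 0 words of 50 nt, the read length. The longest run they share is 14 nt, CGAGGAGGACAGTA, at position 812 of the HEXIM1 transcript. On the opposite strand, 471 of the 3551 words of HEXIM1 (13.3%) also belong to AC138150.1, and 979 of the 2207 words of HEXIM2 (44.4%) belong to AC138150.2.

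**Figure D2:**
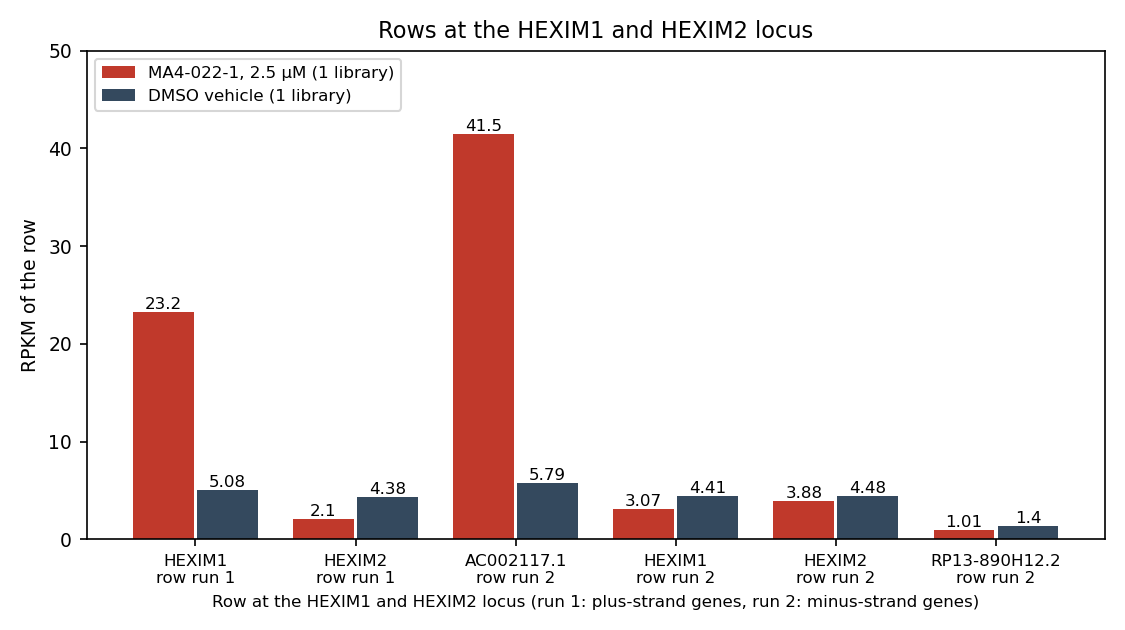
RPKM of each of the 6 rows at the shared HEXIM1 and HEXIM2 locus, MA4-022-1 bar left of vehicle bar, with rows grouped by the run that holds plus-strand or minus-strand genes and 1 library per group. The plus-strand HEXIM1 row is at 23.2 against 5.08 RPKM, the other HEXIM rows are all lower in the MA4-022-1 library, and AC002117.1 is the tallest pair at 41.5 against 5.79 RPKM.

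The protein subunits that protect 7SK lay within 2-fold. LARP7, which binds the end of 7SK and stabilises it, was at 48.8 RPKM in the MA4-022-1 library and 63.9 RPKM in the vehicle library, a log2 ratio of -0.38. Its plain counting interval, from -0.52 to -0.26, lay below 0, and the size was 1.30-fold. MEPCE, the enzyme that caps the start of 7SK with a methyl group, was at 30.8 RPKM with MA4-022-1 and 32.1 RPKM with vehicle, a log2 ratio of -0.06. Its plain counting interval, from -0.15 to 0.04, held 0. LARP7 over MEPCE was 1.58 in the MA4-022-1 library and 1.99 in the vehicle library.

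7SK itself could not be read. The row named RN7SK, on hg19 chromosome 6 from 52860418 to 52860748, was listed at 0 in both libraries, although 7SK is abundant in human cells, and a listed 0 can be a failed estimate. A further 281 rows carry the family name 7SK, which covers copies across the genome, and 123 of them were listed at 0 in both libraries. Of these rows 108 were expressed, and with MA4-022-1 13 of them were at least 2-fold higher while 5 were lower by that size or more. Short RNA rows stayed out of the background and their share past 2-fold was not computed, so these counts cannot be judged against other short RNA rows. The 281 rows summed to 4100 RPKM in the MA4-022-1 library and 3270 RPKM in the vehicle library. How reads of the 7SK gene were shared among such copies was not tested, so no level is given for the RNA.

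The kinase and its cyclins lay within 2-fold. CDK9, the catalytic subunit, was at 36.6 RPKM in the MA4-022-1 library and 28.6 RPKM in the vehicle library, a log2 ratio of 0.35 with a plain counting interval from 0.23 to 0.48. CCNT1, the main cyclin partner of CDK9, was at 25.8 RPKM with MA4-022-1 and 30.1 RPKM with vehicle, a log2 ratio of -0.22 with an interval from -0.29 to -0.16 at the median transcript length and from -0.48 to 0.04 at the shortest. CCNT2, the other cyclin partner, was at 26.5 RPKM with MA4-022-1 and 28.2 RPKM with vehicle, a log2 ratio of -0.09. Its interval ran from -0.33 to 0.15 at the median length of 663 nt. The longest annotated CCNT2 transcript has 6917 nt, and the interval at that length, which would be narrower, was not computed. The cyclins were at nearly equal levels in both libraries, with CCNT1 over CCNT2 at 0.97 in the MA4-022-1 library and 1.07 in the vehicle library. Of the words of CDK9, 83 of 2784 (2.98%) also belong to the microRNA genes MIR3960 and MIR2861, whereas the cyclins share none with another gene.

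Set against the kinase, the transcripts of the inhibitor were more abundant in the MA4-022-1 library and those of the cyclins less abundant. HEXIM1 and HEXIM2 together over CDK9 were 0.88 in the MA4-022-1 library and 0.64 in the vehicle library, as ratios of RPKM. HEXIM1 alone over CDK9 was 0.72 with MA4-022-1 and 0.33 with vehicle, and with its plus-strand row alone 0.64 with MA4-022-1 and 0.18 with vehicle. The summed cyclins over CDK9 were 1.43 in the MA4-022-1 library and 2.04 in the vehicle library. These are ratios of RNA levels per length and say nothing of the proteins or of how much P-TEFb was bound.

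The scaffolds AFF1 and AFF4 and the elongation factor ELL2 were all higher in the MA4-022-1 library, AFF1 alone at least 2-fold. AFF1 is the less abundant scaffold and was at 9.83 RPKM in the MA4-022-1 library and 4.18 RPKM in the vehicle library, a log2 ratio of 1.06 or 2.09-fold. This places AFF1 just past the 2-fold threshold, and it stood at 0.69 with a pseudocount of 5 and at 0.94 when the libraries were scaled to equal sums. The annotated AFF1 transcripts run from 463 to 9390 nt, so the number of reads behind its value is poorly known. At the median length of 1482 nt it corresponds to about 251 reads with MA4-022-1 and 145 with vehicle, with a plain log2 ratio of 1.23 and a counting interval from 0.94 to 1.54. At the shortest length it corresponds to 51 reads with MA4-022-1 and 30 with vehicle, with an interval from 0.53 to 1.91, still above 0.

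AFF4, the other scaffold among the members, was at 58.4 RPKM in the MA4-022-1 library and 31.7 RPKM in the vehicle library. Its log2 ratio of 0.86, or 1.82-fold, lay under the threshold, while 93.6% of the protein-coding symbols had a lower ratio. AFF4 over AFF1 was 5.94 with MA4-022-1 and 7.59 with vehicle, so AFF4 was the more abundant scaffold in both libraries. ELL2, the elongation factor that the complex carries, had the highest level of the 10 genes, at 98.1 RPKM in the MA4-022-1 library and 66.5 RPKM in the vehicle library. Its log2 ratio was 0.55, or 1.47-fold. The plain counting interval ran from 0.41 to 0.71 at the median length of 582 nt, and from 0.38 to 0.74 at the shortest. Of the ELL2 words, 440 of 6199 (7.1%) also belong to the pseudogene ELL2P1, and the deposited ELL2 locus spans 923 kb and 18 rows, whereas AFF1 and AFF4 share no word with another gene.

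Levels were compared between genes per length, as RPKM. In the MA4-022-1 library the order was ELL2, AFF4, LARP7, CDK9, MEPCE, CCNT2, HEXIM1, CCNT1, AFF1 and HEXIM2. In the vehicle library it was ELL2, LARP7, MEPCE, AFF4, CCNT1, CDK9, CCNT2, HEXIM1, HEXIM2 and AFF1. Neighbours such as CCNT2, HEXIM1 and CCNT1 in the MA4-022-1 library, at 26.5, 26.3 and 25.8 RPKM, have no replicate spread against which their order could be judged. HEXIM1 took rank 7 with MA4-022-1 and rank 8 with vehicle, next to the cyclins in the MA4-022-1 library and above only HEXIM2 and AFF1 in the vehicle library.

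**Figure D3:**
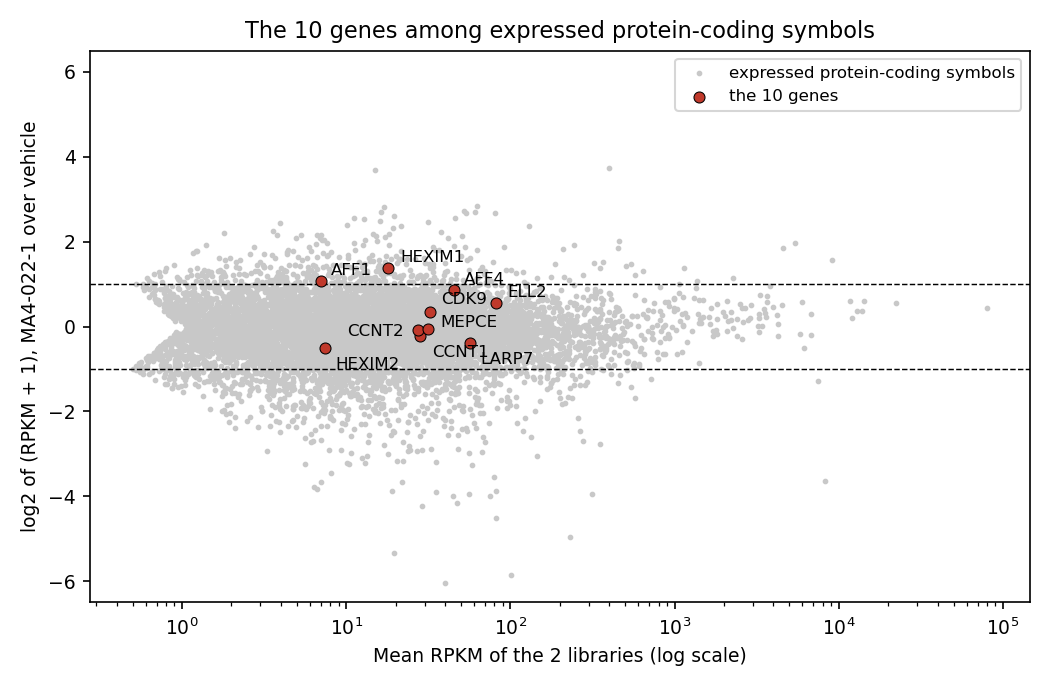
log2 ratio of RPKM + 1, MA4-022-1 over vehicle, against the mean RPKM of both libraries on a log axis for 9821 expressed protein-coding symbols (grey), with the 10 genes marked and named and 1 library per group. HEXIM1 and AFF1 lie above the 2-fold line, AFF4, ELL2 and CDK9 between it and 0, and the other members below 0, HEXIM2 lowest at -0.50.

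The deposited loci of the members place 2 of them alone, and the rest share a locus with other rows. CDK9 (chromosome 9, 130547958 to 130553066) and CCNT1 (chromosome 12, 49082247 to 49110681) each had their hg19 locus to themselves. CCNT2 shared its locus with other rows on chromosome 2 (135493034 to 135716912), LARP7 on chromosome 4 (113434672 to 113578748) and MEPCE on chromosome 7 (99998449 to 100031868). AFF1 did so on chromosome 4 (87797358 to 88062206), AFF4 on chromosome 5 (132211071 to 132299465) and ELL2 on chromosome 5 (95220802 to 96143803). No member occurred in a row joined with another symbol, and for the 8 members other than the HEXIM genes the single row lay in the run of the gene's own strand. Of 44 rows at these loci that name no member, 16 were expressed, and in the MA4-022-1 library 3 of them were at least 2-fold higher while 3 were lower by that size or more. Over all expressed symbols, counted per symbol and not per row, 7.79% were higher and 9.6% lower by that size. Those shares leave out short RNA rows, whereas the microRNA row MIR583 is among the 3 lower rows here. At the MEPCE locus, ZCWPW1, which shares 127 of the 3204 MEPCE words (3.96%) on the opposite strand, was at 0.95 RPKM in the MA4-022-1 library and 3.66 RPKM in the vehicle library.

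The wider elongation machinery was described with 7 lists of 72 genes, of which 63 were expressed in rows of their own and 7 were found only in rows joined with other symbols. Of the 63, 1 was at least 2-fold higher (1.59%) while 8 were lower by that size or more (12.7%), beside the 4.12% and 9.51% of protein-coding symbols given above. The 1 gene was BRD2, a BET protein that reads acetylated histones, at 387 RPKM in the MA4-022-1 library and 102 RPKM in the vehicle library, 3.77-fold higher. BRD3, another BET gene, was at 12.3 RPKM with MA4-022-1 and 9.16 RPKM with vehicle, within 2-fold. With the rows of a symbol summed, BRD2 had the highest ratio among the members and the 63 list genes, and HEXIM1 the next highest. The HEXIM1 row in the plus-strand run, taken alone, stood above BRD2 at 3.99-fold.

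The other super elongation complex genes held 6 expressed genes, 0 at least 2-fold higher or lower, with a median log2 ratio of 0.22. ELL, a relative of ELL2, was at 4.84 RPKM with MA4-022-1 and 3.40 RPKM with vehicle, and MLLT3, a chromatin reader of the complex, at 12.1 RPKM with MA4-022-1 and 9.40 RPKM with vehicle. AFF3, a relative of AFF1 and AFF4, was at 41.0 RPKM in the MA4-022-1 library and 34.4 RPKM in the vehicle library.

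Among pausing factors, the rows of NELF genes were lower in the MA4-022-1 library and the rows of DSIF genes were not. The DSIF and NELF list, whose proteins hold the polymerase near the start until P-TEFb acts, had a median log2 ratio of -0.68 over 5 expressed genes, with 1 at least 2-fold lower. That gene, NELFE (named RDBP in the tables), was at 34.7 RPKM in the MA4-022-1 library and 77.5 RPKM in the vehicle library. NELFB (named COBRA1) was at 7.54 RPKM with MA4-022-1 and 16.0 RPKM with vehicle, 1.99-fold lower, and NELFCD (named TH1L) was at 50.3 RPKM with MA4-022-1 and 81.2 RPKM with vehicle. SUPT5H, the large DSIF subunit, was at 2.95 RPKM with MA4-022-1 and 2.76 RPKM with vehicle in its own row, and at 49.2 RPKM with MA4-022-1 and 34.7 RPKM with vehicle in a row joined with another symbol. SUPT4H1, the small DSIF subunit, was found only in a joined row, at 154 RPKM with MA4-022-1 and 134 RPKM with vehicle. The list of the PAF1 complex and elongation chaperones had a median of -0.07 over 13 genes, close to the -0.10 of all protein-coding symbols, and 4 of them were at least 2-fold lower. SSRP1, a subunit of the histone chaperone FACT, was at 18.6 RPKM with MA4-022-1 and 47.95 RPKM with vehicle, and SUPT16H, its partner, at 23.0 RPKM with MA4-022-1 and 49.4 RPKM with vehicle. LEO1, of the PAF1 complex, was at 23.8 RPKM with MA4-022-1 and 54.0 RPKM with vehicle, and TCEA3, which helps stalled polymerase to restart, at 4.21 RPKM with MA4-022-1 and 10.6 RPKM with vehicle. Others in the list were higher within 2-fold, among them CTR9 of the PAF1 complex, at 40.4 RPKM with MA4-022-1 and 24.5 RPKM with vehicle, and the elongation factor gene TCEA2, at 14.98 RPKM with MA4-022-1 and 9.93 RPKM with vehicle.

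Factors that release P-TEFb from 7SK or bind the RNA had a median log2 ratio of -0.61 over 9 expressed genes, 2 of them at least 2-fold lower. DDX21, a helicase that releases P-TEFb from the 7SK particle, was at 48.1 RPKM in the MA4-022-1 library and 125 RPKM in the vehicle library. HNRNPA1, which binds 7SK freed of P-TEFb, was at 259 RPKM with MA4-022-1 and 648 RPKM with vehicle. PPM1G, a phosphatase that also releases P-TEFb, was at 23.4 RPKM with MA4-022-1 and 44.3 RPKM with vehicle, a log2 ratio of -0.89 within the threshold. These 3 have the largest absolute log2 ratios of their list. PPM1A, a phosphatase of the same list, was at 56.0 RPKM with MA4-022-1 and 46.6 RPKM with vehicle, while SRSF2 and TRIM28 had log2 ratios of -0.17 and -0.21.

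The other transcription kinases and cyclins had a median log2 ratio of 0.07 over 11 expressed genes, beside the 0.35 of CDK9. CDK19, a kinase of the Mediator complex, was at 34.0 RPKM in the MA4-022-1 library and 69.0 RPKM in the vehicle library, just past the 2-fold threshold. CCNC, its cyclin, was at 136 RPKM with MA4-022-1 and 85.3 RPKM with vehicle, and CCNL2, a cyclin of splicing kinases, at 73.2 RPKM with MA4-022-1 and 38.9 RPKM with vehicle. The Integrator and little elongation complex list had a median of -0.05 over 16 genes, with 0 at least 2-fold higher or lower. Its largest absolute log2 ratios were those of VWA9, at 23.3 RPKM with MA4-022-1 and 43.6 RPKM with vehicle, INTS10, at 371 RPKM with MA4-022-1 and 657 RPKM with vehicle, and ICE2 (named NARG2), at 35.4 RPKM with MA4-022-1 and 61.8 RPKM with vehicle.

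**Figure D4:**
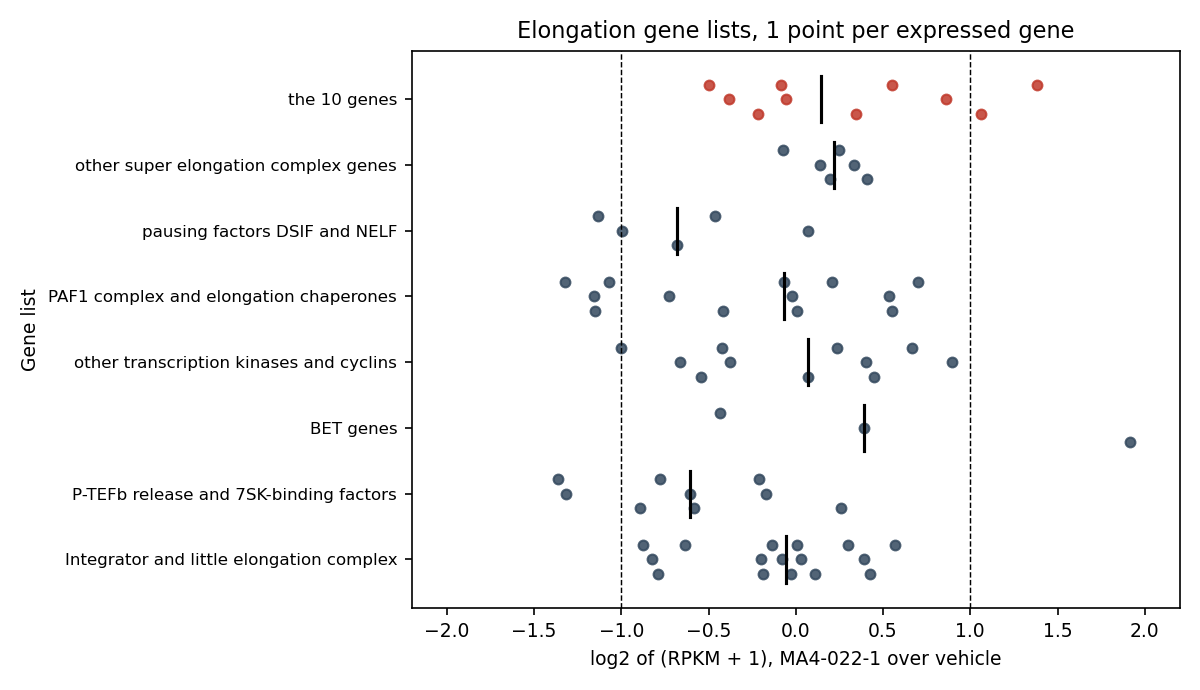
log2 ratio of RPKM + 1, MA4-022-1 over vehicle, with 1 point per expressed gene for the 10 genes and for each of the 7 wider lists, and 1 library per group. The members reach from -0.50 to 1.38 with a median of 0.15, while the pausing factors and the P-TEFb release factors have medians of -0.68 and -0.61.

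The checks of depth and cell identity bear on all of these values. Low values moved in steps of 1 read that placed the totals at 19907945 reads for the MA4-022-1 library and 27136714 for the vehicle library, so a single read on 2000 nt equalled 0.0279 RPKM with MA4-022-1 and 0.0205 RPKM with vehicle. Markers of luminal prostate cells were expressed in 8 of 9 cases in rows of their own and summed to 1640 RPKM with MA4-022-1 and 1570 RPKM with vehicle. Fibroblast markers summed to 5.37 RPKM with MA4-022-1 and 2.81 RPKM with vehicle, with 1 of 6 expressed, COL1A1. Blood cell markers in rows of their own summed to 1.72 RPKM with MA4-022-1 and 0.911 RPKM with vehicle. Of these, HBB alone was expressed, at 1.26 RPKM with MA4-022-1 and 0.307 RPKM with vehicle. The blood cell marker CD68 was found only in a joined row, which this sum leaves out. That row was at 11700 RPKM with MA4-022-1 and 10650 RPKM with vehicle, and the part of CD68 in it cannot be told. Basal epithelial markers summed to 0.846 RPKM with MA4-022-1 and 0.707 RPKM with vehicle, with 0 of 3 expressed and KRT5 listed at 0 in both libraries. The fibroblast marker LUM was also listed at 0 in both libraries, and the part of such cells in the results was not tested.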

How the data were processed

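Total RNA of C4-2B cells was depleted of ribosomal RNA, made into ScriptSeq v2 libraries and sequenced as single reads of 50 bp, per the labels' protocols. TopHat2 2.0.13, Cufflinks 2.2.1 and hg19 are named, without roles, per the submitters' processing notes. The authors deposited 1 table per library of RPKM per gene with locus and symbol, per the file headers. Each table held 62271 rows, of which 2751 had no symbol (23.3% of the summed RPKM in the MA4-022-1 library and 29.6% in the vehicle library) and 1635 joined several symbols.

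With 1 library per group no test was run. For the members and lists, RPKM values of rows with a symbol alone were summed per symbol. Values were compared as log2 of RPKM + 1, with a filter of 1 RPKM in a library and a threshold of 2-fold. In the background of all expressed symbols, each joined name counted as a symbol of its own, and the protein-coding background held no joined name. Short RNA rows, 7253 in all, stayed out of the background. Named genes were the members, RN7SK, the BET genes and, in each wider list, the 3 expressed genes with the largest absolute log2 ratios. SUPT16H, SUPT5H, SUPT4H1, CTR9, TCEA2, PPM1A, SRSF2, TRIM28 and the rows beside members were named after their values were seen. The members and lists were chosen with earlier results of these data known, and 1 gene that the rule names is not reported here. Library totals of 19907945 (MA4-022-1) and 27136714 (vehicle) reads were estimated from low values of processed pseudogenes of 600 to 6000 nt. Of these values, 170 of 195 in the MA4-022-1 library (87.2%) and 224 of 255 in the vehicle library (87.8%) lay within 2% of a whole number of reads. The labels state a depth of 40000000 to 50000000 reads. Reads per gene assume the median transcript length in GENCODE release 29, which was used for lengths, gene types, strand and shared words alone, because its coordinates are of another build. The steps were tested on simulated data. The software was Python 3.11.15 with scipy 1.17.1, numpy 2.4.6, pandas 2.3.3 and matplotlib 3.10.9. Alternatives were other pseudocounts, scalings, thresholds, filters and ways to combine rows. 1 more, using only the rows in the run of a gene's own strand, was chosen after seeing the data.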

Additional observations from a re-analysis of the deposited data

Results flagged for a closer look

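Some rows at the loci of the members name no member and were at least 2-fold higher in the MA4-022-1 library, outside the comparison itself. AC002117.1, a row of the minus-strand run at the HEXIM1 and HEXIM2 locus, was at 41.5 RPKM in the MA4-022-1 library and 5.79 RPKM in the vehicle library, a log2 ratio of 2.64, larger than that of either HEXIM1 row. The other row of that run without a HEXIM symbol, RP13-890H12.2, was at 1.01 RPKM with MA4-022-1 and 1.40 RPKM with vehicle. Whether AC002117.1 shares reads with HEXIM1 was not tested.

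At the ELL2 locus, a row named ERAP1 in the run opposite to that gene's strand was at 4.03 RPKM with MA4-022-1 and 0.739 RPKM with vehicle, a log2 ratio of 1.53, while the ERAP1 row in its own run was at 5.36 RPKM with MA4-022-1 and 5.74 RPKM with vehicle. At the AFF4 locus, the pseudogene ATP6V0E1P1 was at 4.47 RPKM with MA4-022-1 and 0.819 RPKM with vehicle, a log2 ratio of 1.59. It lies in the run opposite to AFF4, and its part in the AFF4 value was not tested.

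As many such rows were at least 2-fold lower. MIR583 at the ELL2 locus was listed at 0 in the MA4-022-1 library and at 33.7 RPKM in the vehicle library. At the MEPCE locus, AC005071.2 was at 0.169 RPKM with MA4-022-1 and 2.98 RPKM with vehicle, a log2 ratio of -1.77, and ZCWPW1 had a log2 ratio of -1.26.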

How the results depend on the processing

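Over 8 alternatives of pseudocount, scale and row choice, no member's log2 ratio changed sign. A pseudocount cannot change a sign. Row choice left the value of the 8 members with a single row unchanged, AFF1 among them, since none had a joined row. For those 8 members only the scalings could have changed the sign. HEXIM1 stayed at least 2-fold higher in 8 of 8 (1.11 to 2.00) and AFF1 in 6 of 8 (0.69 to 1.22), falling under 2-fold with a pseudocount of 5 and with equal sums, so the count of members at least 2-fold higher was 1 under each of these and 0 at a 3-fold threshold. The count of wider list genes at least 2-fold lower was 9 with a pseudocount of 0.1 and 5 with a pseudocount of 5. It was 11 with equal sums and 7 under each of the other 2 scalings. The share of protein-coding symbols lower by that size was 11.7% with equal sums and 9.01% and 9.0% under the others. At 1.5-fold 20 list genes were lower and 4 higher, and at 3-fold 0 were lower. Shares over all symbols at other pseudocounts and thresholds are not given, so those counts have no background beside them. With the rows of the annotated strand alone, an alternative added after seeing the data, HEXIM1 stood at 2.00 and HEXIM2 at -0.80. Equal sums moved the median of all expressed symbols by -0.11, and the share of higher symbols among protein-coding ones past 2-fold was 21.2%, beside 30.2% on the deposited scale and 33.0% under each of the other 2 scalings.

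No paired analysis was possible because each group had 1 library. Depth limits HEXIM2 and AFF1 most. Counting intervals assume a transcript length, and the spread between cultures is unknown.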
